A study of Capra hircus with 6 samples.

Results

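In goat muscle, 10 miRNAs were followed that are known from myogenic differentiation but lie outside the muscle-restricted myomiRs: miR-24, miR-26a, miR-27a, miR-27b, miR-29a, miR-29b, miR-29c, miR-181a, miR-181b and miR-214. They were found by name in the list of all expressed miRNAs, after removal of species prefix, arm, copy number and variant suffix. This gave 27 of 1120 distinct names, and all 27 had read counts. The libraries hold small RNA of the longissimus dorsi, the long back muscle, of Haimen goats: 3 from fetuses at day 75 of pregnancy and 3 from lambs at 1 day of age. Both stages are of 1 breed, no treatment is labelled, and the comparison sets fetal muscle against muscle just after birth. Nothing in the labels ties a library to an animal of its own. The p-values below set the difference between stages only against the scatter among these libraries, and that scatter may be technical.

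A miRNA is cut from a hairpin precursor, whose 5p and 3p arms can both give a mature sequence, and the seed, bases 2 to 8, largely decides which mRNAs it represses. Work in mouse cells ties these miRNAs to the change from dividing myoblasts to fused fibres. There miR-24 promotes differentiation and is repressed by TGF-β, and miR-26a targets the chromatin repressor Ezh2 and the Smads. MiR-27 targets Pax3 and myostatin, and miR-29 targets YY1 and many collagens. MiR-181 targets Hox-A11, and miR-214 is produced with miR-199a from 1 transcript and targets Ezh2.

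The most abundant listed sequence of the leading arm is shown for each family, as the deposited table gives it, 5′ to 3′ with T for U and with the seed in capitals, because shared seeds group the paralogs. For miR-29b and miR-29c the 3p sequence is shown, since it carries the family seed.
miR-27b-3p: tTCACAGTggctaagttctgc
miR-27a-3p (R+2, 1ss19CT): tTCACAGTggctaagttctgct
miR-29a-3p (R+1): tAGCACCAtctgaaatcggtta
miR-29b-3p (R+3): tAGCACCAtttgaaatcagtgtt
miR-29c-3p: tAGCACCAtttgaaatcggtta
miR-181a-5p (R-1): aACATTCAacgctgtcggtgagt
miR-181b-5p (R+1): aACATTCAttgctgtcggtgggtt
miR-26a-5p: tTCAAGTAatccaggataggct
miR-24-3p: tGGCTCAGttcagcaggaac
miR-214-3p (L-1, R+3): aCAGCAGGcacagacaggcagt
In these suffixes L stands for a change of length at the 5′ end and R at the 3′ end, relative to the miRBase registry entry, and ss marks a substitution with its position counted from the 5′ end. This is the usual reading of the notation, which the files do not spell out. The 27 names carried 16 distinct seeds, since the arms of a hairpin differ. MiR-27a and miR-27b shared a 3p seed, as did the 3 miR-29 paralogs, and miR-181a shared its 5p seed with miR-181b. Of the 27 names, 11 (40.7%, exact 95% interval 22.4 to 61.2%) were identical with their registry entry, against 26.2% of all 1120 names and 35.4% of all names without new arms and predicted sequences. Among goat-prefixed names alone the order was the opposite, with 53.3% of 15 member names and 57.8% of all 372. Another 11 were longer at the 3′ end, 2 were shorter there, 2 changed the 5′ end and 5 carried a substitution. The change at the 5′ end moves the seed: miR-214-3p had lost its first registry base, and goat miR-24-5p had gained 1.

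The libraries held 6096009 to 13756954 counts over 1119 names. Levels below are CPM, counts scaled to a common library size with TMM factors. They compare read abundance between stages, and between sequences only roughly, as ligation and PCR favour some sequences. Of 1044 names tested with edgeR's quasi-likelihood test, 312 (29.9%) differed between stages, 98 of them higher in lambs (adjusted p below 0.05, Benjamini-Hochberg). The share of calls that were higher depends on the scaling: it was 31.4% here, 44.6% with the authors' constants, 43.8% with median-ratio size factors and 20.7% with library totals set equal. The median log2 change of all names was -0.30 with TMM, -0.02 with the authors' constants, -0.06 with median-ratio factors and -0.58 with equal totals. The muscle markers miR-133a-3p (log2 change 2.44, SE 0.16) and miR-206 (0.87, SE 0.16) were abundant at both stages and higher in lambs. Of 12 muscle names tested, 4 were higher and 1, miR-499-5p (edgeR adjusted p = 0.0202), was lower, and miR-133b did not pass (log2 0.52, SE 0.25, edgeR adjusted p = 0.169). Summed CPM of the muscle list ran from 56599 to 70993 in fetuses and from 221526 to 299997 in lambs. In a bulk sample, fewer cells of a type and less RNA per cell cannot be told apart.

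Of the 27 member names, 10 were higher in lambs (37%, against 9.39% of all names tested) and 3 were lower (11.1%, against 20.5%). The libraries of the stages did not overlap for 14 names that were higher in lambs, against 14.9% of all names, and for 4 that were lower, against 30.5%. By name, the higher ones belonged to miR-24, miR-26a, miR-27a, miR-27b, miR-29a and miR-29c, but the only miR-27a name among them has a sequence that cannot be told from an extended miR-27b-3p. The lower ones came from miR-181a, miR-181b and miR-214. The median log2 change was 0.88 over the member names and -0.30 over all names tested, and names of 1 miRNA are not independent. All 27 passed the filter of a mean of 1 count, and none of the 5 with a mean under 10 counts passed the test. The share over all names also includes many such weakly read names. With a filter of a mean of at least 10 counts, 12 of 22 member names were higher, beside 116 of all 714, and 3 were lower, beside 189. The count of higher names fell to 4 without fetus replicate 2 and to 4 without fetus replicate 3, while 3 names stayed lower in each case. With totals set equal, 7 names were higher and 3 lower, and with the authors' constants 12 and 3.

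**Figure D1:**
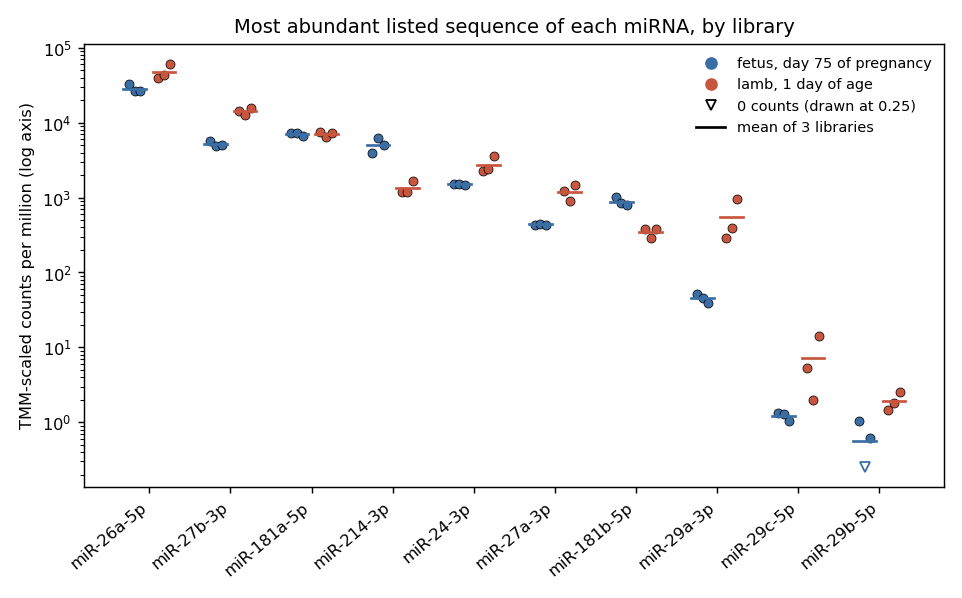
TMM-scaled CPM (log axis) of the most abundant listed sequence of each miRNA, 1 point per library, with a line at the mean of 3 libraries (fetus blue, lamb red) and a triangle for 0 counts. MiR-26a-5p leads at 26433 to 60558 CPM. The stages separate for every sequence drawn except miR-181a-5p, which overlaps, although miR-29b-5p, which also separates, does not pass the test.

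The members differed widely in level. Together they made up 5.45% ± 0.156 of the counts before and 6.95% ± 1.36 after birth (SD, n = 3 each), and lamb replicate 3 held the most, at 8.51%. MiR-26a supplied most of this, with 3.15% ± 0.251 in the fetal and 4.42% ± 1.06 in the lamb libraries. In fetal muscle the order of leading sequences was miR-26a-5p, then miR-181a-5p, miR-27b-3p, miR-214-3p, miR-24-3p, miR-181b-5p, miR-27a-3p and miR-29a-3p, with miR-29c and miR-29b last. MiR-27b-3p and miR-214-3p overlapped there, with 4940 to 5753 and 3962 to 6257 CPM. In lamb muscle miR-27b-3p followed miR-26a-5p and stood above miR-181a-5p without overlap, and miR-214-3p (1192 to 1671 CPM) overlapped with miR-27a-3p (912 to 1474 CPM). MiR-29a-3p, at 291 to 957 CPM in lambs, overlapped with miR-181b-5p, at 287 to 383.

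MiR-26a, the most abundant member and the fifth most counted of all names, was higher in lambs. Goat miR-26a-5p had 32530, 26433 and 26497 CPM in the fetal libraries and 40064, 43947 and 60558 in the lamb libraries. No lamb library was as low as any fetal one, and lamb replicate 3 was the highest. The change was 1.69-fold (log2 0.76, SE 0.18, edgeR adjusted p = 0.0161). A form longer by 3 bases, ending in 3 further T after the shared 22 bases, rose likewise from 203 ± 59.1 to 404 ± 93.4 CPM (SD, n = 3 each, edgeR adjusted p = 0.0308). It stayed between 0.607% and 1.27% of the main form in all libraries. Another 5p name, the miR-26a-2 entry of another species, differs from the main form by 1 base (T10C) and reached only 11.5 to 24.5 counts, and the 3p arm was listed with 9 counts in 1 fetal library. The miR-26a-5p call was lost without fetus replicate 2 (edgeR adjusted p = 0.0741), without fetus replicate 3 (0.0797) and with totals set equal (0.0685). For the longer form the same was true without fetus replicate 2 (0.133), fetus replicate 3 (0.126) or lamb replicate 1 (0.0676), and with totals set equal (0.0617).

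MiR-27b was the member with the smallest error relative to its change. MiR-27b-3p had 5753, 4940 and 5107 CPM in fetuses and 14158, 12491 and 15755 in lambs. Every lamb library was more than double any fetal one, and the change was 2.68-fold (log2 1.42, SE 0.13, edgeR adjusted p = 0.00037). The call held in every alternative run. Its 5p arm, a by-product read at 28 to 149 counts, rose from 3.18 ± 0.592 to 11.9 ± 5.88 CPM (SD, n = 3 each; log2 1.90, SE 0.44, edgeR adjusted p = 0.0157), and lost the call without fetus replicate 2 (0.0772) or fetus replicate 3 (0.0668). Forms of miR-27b-3p longer by 1 and 2 bases had 11 to 42 counts and did not pass (edgeR adjusted p = 0.172 and 0.0844).

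The sequence listed as miR-27a-3p could not be told from an extended miR-27b-3p. Its name records the substitution C19T, registry base first, and 2 added bases. Undoing both as the name states gives the registry form, compared here with miR-27b over their first 20 bases, with the bases that differ or extend in capitals only at position 19 and at the listed 3′ end.
miR-27a-3p, registry form from the name: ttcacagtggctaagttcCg
miR-27b-3p, listed: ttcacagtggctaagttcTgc
miR-27a-3p, listed: ttcacagtggctaagttctgcT
The registry forms differ only at position 19 over these 20 bases, and the substitution C19T gives the listed miR-27a-3p the miR-27b base there. Over all 21 bases of miR-27b-3p the listed miR-27a-3p was identical, with 1 further T. The listed forms of miR-27b-3p longer by 1 and 2 bases have G, not T, at that position, and the source of the T was not tested. The listed miR-27a-3p had 435, 450 and 436 CPM in fetuses and 1222, 912 and 1474 in lambs (2.73-fold, log2 1.45, SE 0.20, edgeR adjusted p = 0.00206). Its counts were 7.55%, 9.10% and 8.55% of those of miR-27b-3p in the fetal libraries and 8.63%, 7.30% and 9.36% in the lamb libraries. The percentages overlap fully, and the log2 ratio differed by 0.0018 between stages (exact two-sided permutation p = 1.00). Both names also hold fractional counts, as when a read is shared between names. This is not particular to them: 6 of the 27 member names do, among them miR-181a-5p and miR-181b-5p. Because the listed miR-27a-3p cannot be told from an extended miR-27b-3p, a change in miR-27a-3p itself cannot be read from this name.

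The 5p arms of miR-27a and miR-27b do differ in sequence, at 8 of 22 positions (capitals), so their reads can be told apart.
miR-27a-5p: agGgcttagctgCttgTGAGCA
miR-27b-5p: agAgcttagctgAttgGTGAAC
MiR-27a-5p had 2.36, 3.02 and 4.17 CPM in fetuses and 9.83, 2.31 and 6.31 in lambs, with lamb replicate 2 below every fetal library. It did not pass the test (log2 0.96, SE 0.55, edgeR adjusted p = 0.223), but did without lamb replicate 2 (log2 1.40, adjusted p = 0.0361). In each library the ratio of miR-27b-5p to miR-27a-5p removes the scaling between libraries. Its log2 value was 0.65, -0.23 and -0.36 in fetuses and 0.89, 1.48 and 0.75 in lambs, without overlap. The difference was 1.02 (exact permutation p = 0.10, the smallest that 3 against 3 libraries allow; adjusted p = 0.12 over 6 ratios chosen after their values were seen).

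MiR-24 is made in mammals from clusters with both miR-27 paralogs, and the annotation of goat assembly ARS1.2 places its 1 MIR24 gene beside MIR23B and MIR27B. MiR-24-3p, which cannot be assigned to 1 cluster, had 1500, 1534 and 1468 CPM in fetuses and 2261, 2395 and 3627 in lambs. The fetal libraries lay close together and all lamb libraries above them (1.84-fold, log2 0.88, SE 0.20, edgeR adjusted p = 0.0152). The call was lost without fetus replicate 1 (0.0512), fetus replicate 2 (0.0644) or fetus replicate 3 (0.0709), and with totals set equal (0.0621). A second 3p name with a changed end had 10 counts in 1 fetal and 5 in 1 lamb library.

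Besides its 3p arm, miR-24 had a pair of 5p sequences, shown because their 3′ parts differ (capitals).
goat miR-24-5p (L+1): ggtgcctactgagctgaTaTC
miR-24-5p, named from a hamster entry (R+1, 1ss21GC): gtgcctactgagctgaAaCACA
After the extra first base of the goat form, the sequences differ at 3 of 20 positions (A17T, C19T and A20C, from the second to the first, counted on the second). By its name, the goat form would belong to the annotated gene beside MIR27B, but neither form was placed by sequence, so the locus of each is not established here. Goat miR-24-5p had 2.84, 2.47 and 1.15 CPM in fetuses and 7.37, 9.07 and 11.5 in lambs (4.28-fold, log2 2.10, SE 0.43, edgeR adjusted p = 0.0104). All lamb libraries were above all fetal ones. The second form had 15.8, 19.8 and 12.3 CPM in fetuses and 17.2, 13.7 and 27.4 in lambs and did not pass (log2 0.29, SE 0.35, edgeR adjusted p = 0.559). Their log2 ratio was -2.90 ± 0.43 before and -1.01 ± 0.37 after birth (SD, n = 3 each), a difference of 1.89 without overlap (exact permutation p = 0.10, adjusted p = 0.12).

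The cluster partners of the miR-27 and miR-24 genes were also read. MiR-23b-3p, annotated beside MIR27B and MIR24, rose from 2534 ± 227 to 3783 ± 451 CPM (SD, n = 3 each; log2 0.58, SE 0.14, edgeR adjusted p = 0.0202). MiR-23a, annotated beside MIR27A, had 2294 ± 205 and 2089 ± 767 CPM (log2 -0.13, SE 0.25, edgeR adjusted p = 0.705). The log2 ratio of miR-23b-3p to miR-23a lay above all fetal values in each lamb library, by 0.77 on average (exact permutation p = 0.10, adjusted p = 0.12).

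**Figure D2:**
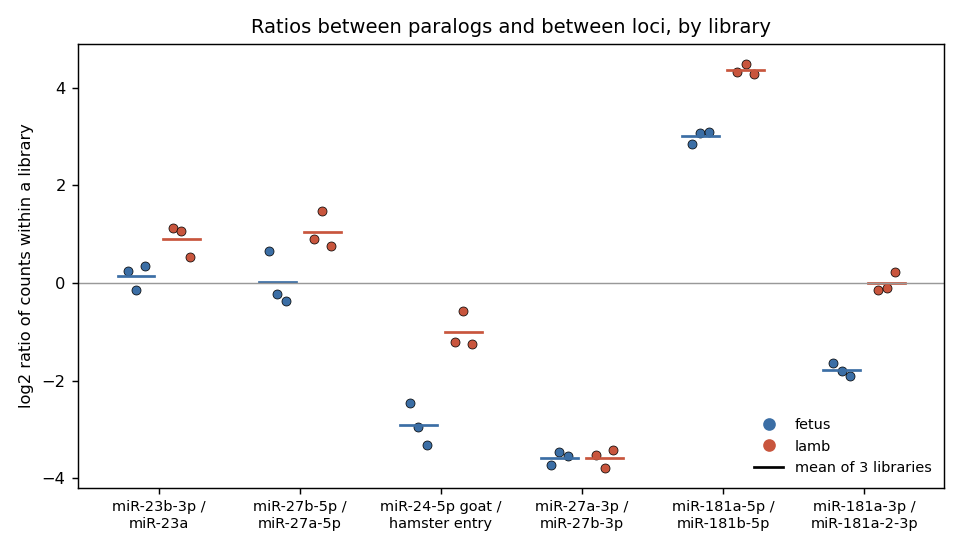
Log2 ratio of counts (each plus 1) of the first over the second sequence within a library, 1 point per library, with a line at the mean of 3 libraries (fetus blue, lamb red). Of the 10 ratios computed, 6 are drawn, of which 5 separate the stages, by 0.77 to 1.89, and miR-27a-3p over miR-27b-3p lies at -3.58 in both.

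Of the 4 ratios left out of the plot of ratios by library, miR-214-3p over miR-214-5p separated the stages, and miR-29a over miR-29c, miR-29b over miR-29c and miR-199a-5p over miR-214-3p overlapped.

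MiR-29a had the largest change among the abundant members. MiR-29a-3p had 51.6, 45.7 and 39 CPM in fetuses and 291, 389 and 957 in lambs. The fetal values were close, and lamb replicate 3 was more than double the other lamb libraries. The change was 12-fold (log2 3.59, SE 0.48, edgeR adjusted p = 0.00169), and without lamb replicate 3 the log2 change was 2.91 (adjusted p = 0.000347).

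MiR-29c-3p differs from miR-29a-3p by 1 base, at position 10 (T10C, from miR-29c to miR-29a). It was read with 5, 0 and 0 counts in fetuses and 20, 9 and 59 in lambs (edgeR adjusted p = 0.0229). In the lamb libraries it came to 0.846%, 0.412% and 0.707% of miR-29a-3p. Whether single-base errors in miR-29a reads feed this name was not tested. MiR-29c-5p, whose sequence is its own, had 19, 14 and 10 counts in fetuses and 43, 11 and 125 in lambs, or 1.21 ± 0.150 and 7.19 ± 6.41 CPM (SD, n = 3 each; log2 2.56, SE 0.71, edgeR adjusted p = 0.0314). Both calls were lost without fetus replicate 2, fetus replicate 3 or lamb replicate 3 (edgeR adjusted p from 0.0686 to 0.126), and that of the 5p arm also without fetus replicate 1 (0.0946). Without lamb replicate 3 the log2 change of miR-29c-5p was 1.61, and fetus replicate 1 held all 5 fetal counts of miR-29c-3p.

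MiR-29b was close to the detection limit. Its 3p form was read only in lamb replicate 3, with 19 counts, and the 0 counts elsewhere allow up to 3 counts per library. This form differs from miR-29a-3p at 4 of 22 positions. Its 5p form had 15, 0 and 6 counts in fetuses and 12, 10 and 22 in lambs. Neither passed (edgeR adjusted p = 0.182 and 0.242). The log2 ratios of miR-29a to miR-29c (3p, exact permutation p = 0.30) and of miR-29b to miR-29c (5p, exact permutation p = 0.80) overlapped between stages, with adjusted p = 0.60 and 1.00 over 4 ratios between paralogs.

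**Figure D3:**
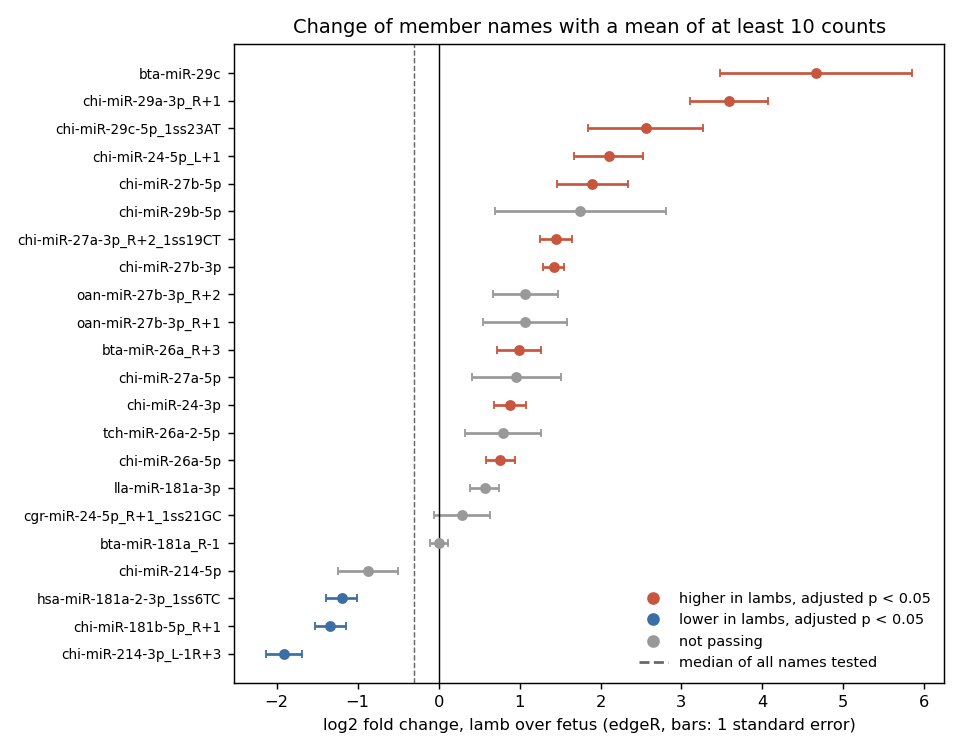
Log2 fold change, lamb over fetus, of the 22 member names with a mean of at least 10 counts, with bars of 1 standard error, coloured by the edgeR call. MiR-29, miR-27, miR-24 and miR-26a names lie to the right, 3 names of miR-181a, miR-181b and miR-214 pass to the left, and the dashed line marks the median of all names at -0.30.

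The miR-181 paralogs diverged between the stages. MiR-181a-5p had 7300, 7208 and 6742 CPM in fetuses and 7620, 6404 and 7258 in lambs, with full overlap (log2 0.00, SE 0.11, edgeR adjusted p = 0.991). Its direction follows the scaling, with a log2 change of 0.29 under the authors' constants and -0.28 with equal totals (edgeR adjusted p = 0.097 and 0.083). MiR-181b-5p fell from 1018, 853 and 785 CPM in fetuses to 383, 287 and 377 in lambs, 2.53-fold lower without overlap (log2 -1.34, SE 0.19, edgeR adjusted p = 0.00222). As a percent of miR-181a-5p counts it was 12.5% ± 1.28 before and 4.90% ± 0.369 after birth (SD, n = 3 each). Both names hold fractional counts, as when a read is shared between names, and which names share reads was not tested. The log2 ratio of miR-181a-5p to miR-181b-5p was higher by 1.34 in lambs and does not depend on the scaling between libraries (exact permutation p = 0.10, adjusted p = 0.40 over 4 ratios). The sequences differ at 3 of 23 positions outside the seed, shown in capitals.
miR-181a-5p: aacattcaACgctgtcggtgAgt
miR-181b-5p: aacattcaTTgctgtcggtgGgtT
The other miR-181b names, extended to 26 bases, had 38 and 11.5 counts in all, each only in fetal libraries, and did not pass (edgeR adjusted p = 0.122 and 0.224).

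MiR-181a is encoded in mammals by a pair of genes that give the same 5p but different 3p arms. The listed 3p sequences differ at positions 5 and 16 (capitals), the former inside the seed.
miR-181a-2-3p (named from a human entry, 1ss6TC): accaCcgaccgttgaCtgtacc
miR-181a-3p (named from another species' entry): accaTcgaccgttgaTtgtacc
MiR-181a-2-3p had 309, 320 and 331 CPM in fetuses and 150, 154 and 116 in lambs, 2.29-fold lower (log2 -1.20, SE 0.19, edgeR adjusted p = 0.00345). Its T6C substitution against the human entry lies in the seed. MiR-181a-3p had 99.7, 91.2 and 88.4 CPM in fetuses and 135, 143 and 136 in lambs, all above the fetal libraries, and just missed the threshold (log2 0.57, SE 0.18, edgeR adjusted p = 0.0547). It passed in 8 alternatives, among them median-ratio factors (0.0208) and the authors' constants (0.0123), and not with equal totals (log2 0.29, adjusted p = 0.243). The log2 ratio of the pair moved from -1.78 ± 0.14 in fetuses to -0.01 ± 0.21 in lambs (SD, n = 3 each), a difference of 1.78 without overlap (exact permutation p = 0.10, adjusted p = 0.12).

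MiR-214 was the most strongly lowered member. MiR-214-3p had 3962, 6257 and 5070 CPM in fetuses and 1203, 1192 and 1671 in lambs, 3.76-fold lower without overlap (log2 -1.91, SE 0.22, edgeR adjusted p = 0.00092). MiR-214-5p had 100, 131 and 94.7 CPM in fetuses and 38.5, 45.7 and 93.8 in lambs and did not pass (log2 -0.87, SE 0.37, edgeR adjusted p = 0.131), but did without lamb replicate 3 (log2 -1.36, adjusted p = 0.0109). Lamb replicate 3 nearly reached the lowest fetal library. The 5p arm came to 2.16% ± 0.334 of the 3p counts before and 4.22% ± 1.25 after birth (SD, n = 3 each). The log2 ratio of 3p to 5p fell by 0.93 without overlap (exact permutation p = 0.10, adjusted p = 0.12).

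Both arms of miR-199a, annotated beside MIR214, were lower in lambs as well, but their reads were not placed at this gene by sequence. MiR-199a-3p had a log2 change of -0.93 (SE 0.29, edgeR adjusted p = 0.0481), beside -1.91 for miR-214-3p. MiR-199a-5p was 2.90-fold lower in lambs (log2 -1.54, SE 0.29, edgeR adjusted p = 0.00713), and its ratio to miR-214-3p overlapped between stages (exact permutation p = 0.30). Both miRNAs are also known from fibroblasts and other stromal cells. Of the stroma and smooth muscle list, which holds miR-199a, 3 of 9 names were higher in lambs (9.39% of all names) and 3 lower (20.5%). Summed, the list had 32612 to 39364 CPM in fetuses and 18490 to 28120 in lambs, while miR-143-3p (log2 0.72, SE 0.17) and miR-145-5p (log2 0.64, SE 0.15) were higher in lambs (edgeR adjusted p = 0.0185 and 0.0157). The part of stromal cells in the miR-214 change was not tested.

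A list of 22 other miRNAs tied to myogenic differentiation or satellite cells had 59 names tested. Of these, 15 were higher in lambs, where the share over all names was 9.39%, and 15 were lower, where it was 20.5%. The median log2 change was -0.09. Both these miRNAs and the members held more higher names than the share over all names. The lower names of this list, 15 of 59, were only slightly above the 20.5% over all names. Many of its higher names were arms or end and base variants of 1 miRNA, miR-378, and names of 1 miRNA are not independent. Among other cell types, endothelial miR-126-3p rose 1.80-fold (log2 0.85, SE 0.15, edgeR adjusted p = 0.00509). Summed blood cell names had 8240 to 8498 CPM in fetuses and 23487 to 39355 in lambs, a list that includes miR-486, which striated muscle also makes. Of the 13 blood cell names tested, 5 were higher (9.39% of all names) and 2 lower (20.5%). Red cell miR-451 did not pass (log2 -0.87, SE 0.37, edgeR adjusted p = 0.126). The epithelial list had 2.20 to 72.3 CPM in fetuses and 10.9 to 14.5 in lambs. Summed, the neural names had 3677 to 4707 CPM in fetuses and 4934 to 5299 in lambs, although their median log2 change was -1.04, with 0 of 8 names higher and 1 lower. Summed, the adipose names had 1013 to 1355 CPM in fetuses and 70.3 to 156 in lambs. Of these 4 names, 0 were higher and 2 lower, with a median log2 change of -0.83. The drop in the sum was thus not shared by all names of this list. The part of any of these cells in the members' changes was not tested.

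In the authors' deposited table, whose p-values come from a t test on each name, 11 of the 27 member names had p below 0.05, against 28.0% of 1119 names. Of these, 7 were among the 13 called here. The other 6 called here included miR-26a-5p, miR-24-3p and miR-29a-3p, for which the authors' deposited table gives p = 0.0637, 0.0823 and 0.141. For miR-181a-3p, which missed the threshold here, the authors' deposited table gives p = 0.000122.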

How the data were processed

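The values are per-name read counts, deposited by the authors with sequences for 6 libraries. Some counts end in a fraction, so per the file headers and values they were treated as estimated counts and rounded for the count tests. The authors also deposited normalised values, a signal equal to the count times 1 constant per library, whose derivation the sources do not state. Per the file headers, the deposited p-values come from the authors' t test of fetus against lamb for each name. Per the file headers, the deposited log2 fold changes are the authors' fetus over lamb. Per the labels' protocols, libraries came from a TruSeq small RNA kit and gel size selection. For aligner, miRBase release and goat build the sources used here give nothing. The list of all expressed miRNAs gives each name's class against the registry.

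Names with a mean of at least 1 count were tested with edgeR 4.0.16 (TMM, quasi-likelihood, R 4.3.3). Standard errors are the absolute log2 change over the square root of F. Alternatives used DESeq2 1.42.0, limma 3.58.1, other scalings and filters, and libraries left out. The fits were tested on simulated data. Ratios within a library used counts plus 1 and a two-sided exact permutation test over libraries. Names without a written arm took that of names with the same seed. All 10 members were named, with full values for the leading name of each arm; other names of an arm are given more briefly. Members and lists were chosen with earlier results of these data known. RefSeq's ARS1.2 annotation was used only for gene names and which genes lie within 10 kb of each other. Counts without molecular identifiers are not independent molecules. The exact interval for registry identity is over distinct names and uses no read counts, and it treats the names as independent, which they are not. Same-numbered libraries were not treated as pairs.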

Additional observations from a re-analysis of the deposited data

How the results depend on the processing

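The 3 lower member names stayed 3 in every alternative except 4 without lamb replicate 3 and 2 with names collapsed to miRNA and arm, which merges both miR-181a-3p sequences (log2 -0.27, edgeR adjusted p = 0.192). The 10 higher names ranged from 4 to 11 with 1 library left out (3 to 4 for the lower ones) and from 7 to 12 under other filters, scalings and tests, and were 6 with a replicate block. Over all names, the 98 higher calls ranged from 53 to 112 with 1 library left out (134 to 216 for the lower ones). They ranged from 69 to 158 under other filters, scalings and tests, and were 57 with the block. Same-numbered libraries had correlations of their deviations from the stage mean of 0.157, 0.367 and -0.379. Fetus 1 lay closest to lamb 3 (0.544). With 3 libraries per stage, such values cannot show whether the numbers pair the libraries. With the block, miR-26a-5p had an edgeR adjusted p = 0.0549 and miR-181a-5p a log2 change of -0.00071 against 0.0022. The block lowered the calls over all names from 312 to 195, and leaving out fetus replicate 2 to 187. The direction of miR-181a-5p also turned with totals set equal (-0.28) and with libraries left out (-0.03 to 0.14), and that of the hamster-named miR-24-5p without lamb replicate 3 (-0.03, range to 0.58). For ratios between stages, with 1 library left out the miR-27a to miR-27b difference ran from -0.08 to 0.10, and that of miR-29b to miR-29c from -0.96 to 0.83. With a pseudocount of 10 the latter was -0.54 against 0.18, and that of miR-29a to miR-29c 1.16 against -0.92. With a replicate block, sign flips of 3 pairs cannot give p below 0.25. Sequence identity with the registry, 40.7% of member names, was 53.3% among goat-prefixed names, below the 57.8% of all goat-prefixed names, and 40% over rows. The planned ratio of miR-29a to miR-29b was not run, because miR-29b-3p had counts in 1 library only. TMM on the deposited values was not run, as it is the main scaling of the counts. The authors' constants, limma with a pseudocount of 1 and all ratios between loci or arms were chosen after seeing the data. The cause of these differences was not tested.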

Other observations

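Relatives of the members that share a seed or a name stem gave these values. MiR-26b-5p had 694 ± 98.3 CPM before and 1181 ± 219 after birth (SD, n = 3 each; log2 0.77, SE 0.19, edgeR adjusted p = 0.0216), beside a log2 change of 0.76 for miR-26a-5p. MiR-181d fell from 28.2 ± 6.83 to 10.3 ± 1.55 CPM (log2 -1.45, SE 0.30, edgeR adjusted p = 0.0107). MiR-181c-5p had 50.1 ± 1.07 and 47.1 ± 11 CPM (log2 -0.09, SE 0.25, edgeR adjusted p = 0.8), whereas miR-181c-3p fell from 23.4 ± 5.33 to 6.41 ± 2.47 CPM (log2 -1.86, SE 0.39, edgeR adjusted p = 0.0112). The difference between the miR-181c arms was not tested.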
